A study of Arabidopsis thaliana with 9 samples.

Results

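Whole Arabidopsis thaliana seedlings of the accession WS, kept at 4 °C for 24 h, were compared with seedlings of the accession Col-0 that had stayed at 22 °C. The comparison uses 4 of the 9 ATH1 arrays in the series, each hybridised with total RNA: 2 arrays of WS at 4 °C and 2 arrays of mock-treated Col-0 at 22 °C. They were chosen by their labels alone, and the mean log2 signal of the first pair minus that of the second was taken for each probe set. The other 5 arrays, Col-0 after 24 h at 4 °C, are set beside them. Of those, 2 have set 4 in their titles. The WS arrays have q6ws and q8ws in theirs, which nothing in the labels explains. All seedlings were wild type in genotype and 10 days old. They grew on Gamborg medium with 0.7% agar, without sucrose, after 3 days of stratification, in constant light of 60 to 80 microE at 22 °C until the treatment, and the mock treatment was a move to another chamber at 22 °C. No WS array at 22 °C was used here, so in this comparison the accession and the cold cannot be told apart. The difference between the accessions at 4 °C, which holds temperature constant, was therefore tested as well. Nothing in the labels says whether replicate arrays came from separate cultures, and the p-values then measure the spread between arrays, which may be technical.

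A plant that meets low but non-freezing temperature acclimates: calcium signals and the transcription factors ICE1 and CAMTA switch on the CBF (DREB1) factors, and these in turn activate the COR genes. COR proteins and dehydrins protect membranes and chloroplasts when cells later freeze and lose water. Acclimation also brings sugars, anthocyanins and ribosome production up, slows growth, and meets the circadian clock through GIGANTEA and the small proteins COR27 and COR28. Accessions differ in how far they acclimate, and also carry different disease resistance genes, which vary more between natural lines than most other gene families.

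Called means a limma adjusted p under 0.05 together with a log2 difference of at least 1 in size, which is 2-fold. Of 22746 probe sets, 1551 were higher in WS at 4 °C than in Col-0 at 22 °C (6.82%) and 1676 were lower (7.37%), 14.2% in all. Among them, 362 were higher and 394 lower by a log2 difference of 2 or more, and 35 and 31 by 4 or more. Between WS and Col-0 at the same 4 °C, 195 were higher in WS (0.857%) and 291 lower (1.28%), 2.14% in all. These 2 counts depended on the second WS array: without WS replicate 2 they were 111 and 174. In cold minus mock-treated Col-0, 1335 were higher (5.87%) and 1386 lower (6.09%), 12.0% in all. That comparison uses the same 22 °C arrays as the first one, so its values are given only beside those of WS. The median difference over all probe sets was 0.041, 0.009 and 0.027 in the order of these comparisons. Pairs of one WS and one Col-0 22 °C array correlated between 0.9204 and 0.9358 over all probe sets, against 0.9878 for the pair of WS arrays and 0.9842 for the pair at 22 °C. The precision is limited by having 2 arrays a group. In what follows, levels are log2 signals, differences are log2 differences with the standard error from limma after ±, and gene lists are read against the percentages above. The arrays measured whole seedlings, so fewer cells of a type and less RNA per cell cannot be told apart.

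The best known effectors of cold acclimation were high in cold WS. Of 9 measured genes on the list of cold effectors, 6 were higher in WS at 4 °C than in Col-0 at 22 °C and none was lower, with a median difference of 2.76. COR15A, a chloroplast protein that stabilises membranes during freezing, read 13.35 and 13.06 in WS at 4 °C and 6.42 and 8.32 in Col-0 at 22 °C. Its close copy COR15B read 12.87 and 12.62 in WS at 4 °C and 6.55 and 8.36 in Col-0 at 22 °C. For both genes the groups were far apart, and the WS arrays lay much closer to each other than the 22 °C arrays did. The differences were 5.84 ± 0.46 for COR15A (adjusted p = 4.41e-05) and 5.29 ± 0.44 for COR15B (adjusted p = 5.65e-05). Their size rested on the 22 °C arrays, since the second of these was higher for both genes. Without Col-0 22 °C replicate 1 the COR15A difference was 4.89 and the COR15B difference 4.39, and without replicate 2 they were 6.79 and 6.20.

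Dehydrins, hydrophilic proteins that accumulate in drying and freezing cells, followed. LTI30 read 13.41 and 13.46 in WS at 4 °C and 7.83 and 10.00 in Col-0 at 22 °C, a difference of 4.52 ± 0.52 (adjusted p = 0.00028), which was 3.43 without Col-0 22 °C replicate 1 and 5.61 without replicate 2. COR47 read 13.63 and 13.33 in WS at 4 °C and 10.32 and 10.63 in Col-0 at 22 °C, a difference of 3.01 ± 0.21 (adjusted p = 2.27e-05). For both genes the cold WS arrays lay above the 22 °C arrays without overlap, and COR47 varied less between the 22 °C arrays. COR27, a cold-induced protein that acts on the clock, read 9.44 and 9.57 in WS at 4 °C and 6.08 and 7.40 in Col-0 at 22 °C (2.76 ± 0.48, adjusted p = 0.00269, with 2.11 without Col-0 22 °C replicate 1). AT4G33980, listed with it, read 8.17 and 8.16 in WS at 4 °C and 5.89 and 6.57 in Col-0 at 22 °C (1.93 ± 0.39, adjusted p = 0.00528). The remaining 3 effectors were not called. HVA22C and SRC2 differed by 0.18 and 0.06, and OSM34, which encodes osmotin, by -1.10 (adjusted p = 0.0719). OSM34 passed the test as lower under several other settings, with an adjusted p of 0.0318 when the set 4 arrays were left out.

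At the same temperature no cold effector was called between the accessions. In WS minus Col-0 at 4 °C limma called none of the 9, 1 had an unadjusted p under 0.05, the median was 0.00 to 2 decimals, and the differences ran from -0.68 to 0.40. COR15A differed by -0.22 (adjusted p = 0.842), COR15B by -0.15 (adjusted p = 0.892), LTI30 by 0.00 (adjusted p = 0.998) and COR47 by 0.02 (adjusted p = 0.976). With 2 WS arrays, a difference that misses the threshold does not show equal levels. The 5 cold Col-0 arrays ranged from 13.35 to 13.53 for COR15A and from 13.38 to 13.49 for LTI30, and in Col-0 the same 6 genes were called higher at 4 °C than at 22 °C.

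**Figure D1:**
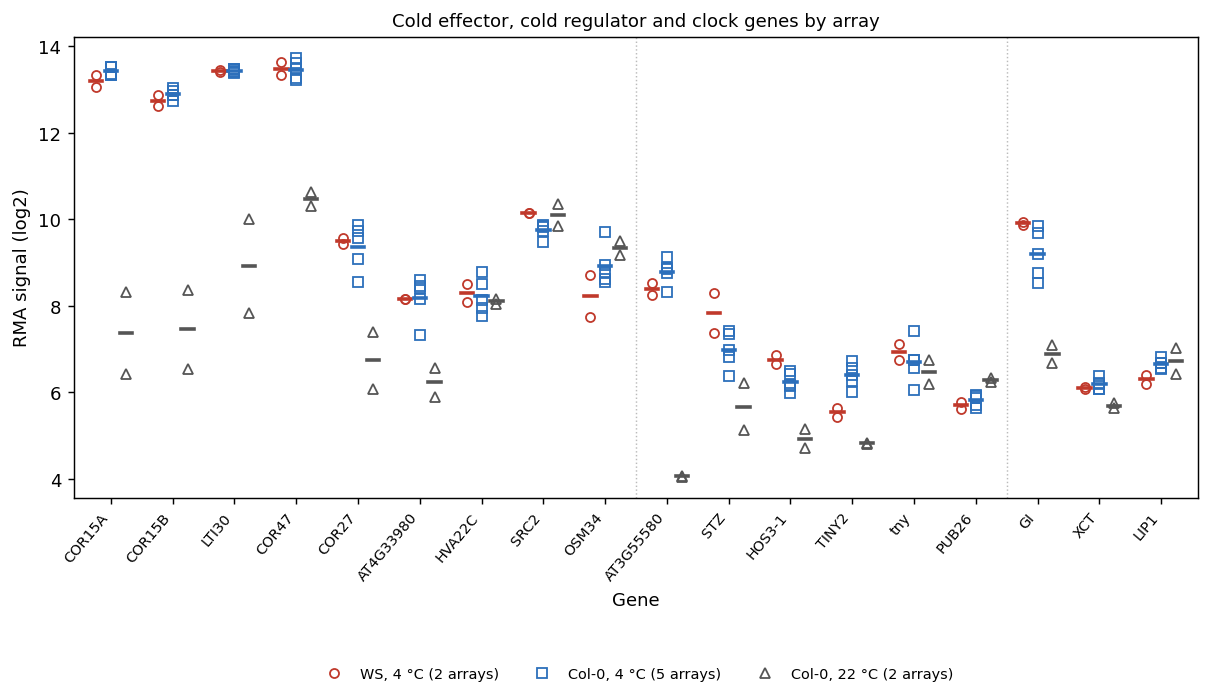
Log2 RMA signal of cold effector (left), cold regulator (middle) and clock genes (right), each symbol 1 array and each bar a group mean, with WS at 4 °C left of Col-0 at 4 °C and Col-0 at 22 °C. For COR15A, COR15B, LTI30, COR47 and AT3G55580 every cold array lies above both 22 °C arrays, while SRC2 and HVA22C lie close together in all groups.

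Of 10 measured cold regulators, 3 were higher in WS at 4 °C than in Col-0 at 22 °C and none was lower, with a median of 0.20. AT3G55580 read 8.53 and 8.25 in WS at 4 °C and 4.07 and 4.05 in Col-0 at 22 °C (4.33 ± 0.23, adjusted p = 7.9e-06). The pair at 22 °C was close to the dim end of the array. STZ, a zinc finger repressor also known as ZAT10, read 7.38 and 8.31 in WS at 4 °C and 5.12 and 6.22 in Col-0 at 22 °C (2.17 ± 0.45, adjusted p = 0.00601). It missed the threshold without WS replicate 2, at 1.71 and an adjusted p of 0.0523. HOS3-1 read 6.86 and 6.66 in WS at 4 °C and 5.15 and 4.71 in Col-0 at 22 °C (1.83 ± 0.21, adjusted p = 0.000275). None of these 3 was called between WS and Col-0 at 4 °C.

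The other regulators differed less between cold WS and Col-0 at 22 °C. TINY2, a DREB-family transcription factor, read 5.65 and 5.43 in WS at 4 °C and 4.83 and 4.81 in Col-0 at 22 °C, a difference of 0.72 that is under the fold threshold. It stood lowest in WS among the cold arrays: the 5 cold Col-0 arrays read between 6.01 and 6.73, and WS minus Col-0 at 4 °C was -0.86 (adjusted p = 0.0307), again under the fold threshold, but -1.03 and called without the set 4 arrays. In cold minus mock-treated Col-0 TINY2 was called, at 1.58. The related factor tny differed by 0.46 and the SUMO ligase SIZ1 by -0.34 in cold WS against Col-0 at 22 °C. PUB25 and PUB26, ubiquitin ligases that act on the cold repressor MYB15, differed by -0.24 and -0.59. The CBF genes themselves had no probe set assigned to them alone in the annotation used and are not analysed here.

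GIGANTEA led the clock genes. Of 8 measured clock genes, 3 were higher in WS at 4 °C than in Col-0 at 22 °C and none lower, with a median of 0.31: GI and, counted a second time, COR27 and AT4G33980. GI, which links the clock to flowering and freezing tolerance, read 9.87 and 9.95 in WS at 4 °C and 6.69 and 7.09 in Col-0 at 22 °C (3.02 ± 0.40, adjusted p = 0.000634). The cold Col-0 arrays ranged from 8.52 to 9.84 for GI, below both WS arrays, yet WS minus Col-0 at 4 °C missed the threshold (0.70, adjusted p = 0.301). XCT, TIC, FIO1, LIP1 and ARR15 were not called, with differences from -0.43 for LIP1 to 0.41 for XCT. ARR15, also on the list of cytokinin response regulators, was dim in every array, at 3.76 to 4.33.

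Late embryogenesis abundant (LEA) proteins and other dehydration genes showed a mixed picture: 5 of 12 were higher in cold WS and 1 was lower, with a median of 0.43. LEA4-5 read 10.44 and 9.65 in WS at 4 °C and 3.95 and 5.54 in Col-0 at 22 °C (5.30 ± 0.68, adjusted p = 0.000498). The 22 °C values are dim, and the difference was 4.51 without Col-0 22 °C replicate 1 and 6.10 without replicate 2. DI19, a drought-induced zinc finger protein, went the other way, with 11.03 and 10.14 in WS at 4 °C and 11.69 and 12.27 in Col-0 at 22 °C (-1.40 ± 0.30, adjusted p = 0.00723). Its call was lost without Col-0 22 °C replicate 2 (-1.11, adjusted p = 0.0518), without WS replicate 2 (-0.95) and when the fit held only the 4 arrays (adjusted p = 0.0625). Between the accessions at 4 °C limma called none of the 12, and none had an unadjusted p under 0.05.

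Some sugar and starch genes differed between cold WS and Col-0 at 22 °C. Among 19 sugar transporters 6 were higher and 3 lower than in Col-0 at 22 °C, or 47.4% of the list against 14.2% of all probe sets, with a median of 0.10. SWEET13, a sucrose exporter, read 9.57 and 9.35 in WS at 4 °C and 5.86 and 6.22 in Col-0 at 22 °C (3.42 ± 0.22, adjusted p = 1.6e-05). SWEET4 differed by 2.29 ± 0.35 (adjusted p = 0.00139), and TMT2, which loads sugars into the vacuole, by 1.61 ± 0.17 (adjusted p = 0.000207). SFP1 and SFP2, sugar transporters of the ERD6-like family, were lower, at -1.94 and -1.77. SWEET17, the vacuolar fructose carrier, was lower, at -1.03, which fell under the fold threshold without Col-0 22 °C replicate 1 (-0.92) or WS replicate 2 (-0.98). No sugar transporter was called by limma between WS and Col-0 at 4 °C, and 1 had an unadjusted p under 0.05. That gene was TMT2, whose difference of -0.62 there passed on adjusted p (0.0452) and missed only the fold threshold.

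Of 8 starch and sucrose genes 2 were higher in cold WS and none was lower, with a median of 0.06. Both encode large subunits of ADP-glucose pyrophosphorylase, the first committed enzyme of starch synthesis. APL4 read 7.48 and 6.49 in WS at 4 °C and 3.89 and 4.18 in Col-0 at 22 °C (2.95 ± 0.48, adjusted p = 0.00181). APL3 read 8.94 and 8.24 in WS at 4 °C and 5.98 and 6.21 in Col-0 at 22 °C (2.50 ± 0.35, adjusted p = 0.000771). PWD, a starch-phosphorylating enzyme, differed by 0.12. Among 24 genes of alternative NADH dehydrogenases and the citrate cycle, 1 was higher and 1 lower. That is 8.33% of the list, less than the 14.2% of all probe sets. The count of higher genes moved when WS replicate 1 or Col-0 22 °C replicate 2 was left out. NDB2, an alternative dehydrogenase on the outer face of the inner mitochondrial membrane, read 10.13 and 10.44 in WS at 4 °C and 6.13 and 6.85 in Col-0 at 22 °C (3.80 ± 0.31, adjusted p = 5.33e-05).

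The machinery that makes ribosomes stood higher in cold WS. All 17 measured genes of RNA polymerases I and III and the nucleolus had a positive difference, 6 of them were called higher and none lower, and the median was 0.79. YAO, a nucleolar protein of the rRNA processing complex, read 8.62 and 8.88 in WS at 4 °C and 6.29 and 6.21 in Col-0 at 22 °C (2.50 ± 0.28, adjusted p = 0.000236). IMP4, of the same complex, differed by 1.84 ± 0.16 (adjusted p = 6.64e-05). NRPA1, the largest subunit of RNA polymerase I, differed by 1.71 ± 0.44 (adjusted p = 0.0186). The NRPA1 call was lost without either WS array or without Col-0 22 °C replicate 2, where its difference was 1.34 and the adjusted p 0.115. PRH75, a nucleolar RNA helicase, was not called (0.79, adjusted p = 0.0852). In WS minus Col-0 at 4 °C limma called none of the 17, 2 had an unadjusted p under 0.05, and the median was -0.02.

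Chaperone genes were called in both directions. Among 16 chaperones 6 were higher in WS at 4 °C than in Col-0 at 22 °C and 2 were lower, with a median of 0.36. Hsp70-2 read 9.53 and 10.22 in WS at 4 °C and 7.50 and 7.61 in Col-0 at 22 °C (2.32 ± 0.34, adjusted p = 0.000985). Fes1A, an Hsp70 nucleotide exchange factor, was higher by 2.16 ± 0.40 (adjusted p = 0.00379), while its relatives Fes1B and Fes1C were lower, at -2.09 and -1.02. Fes1C sat at the fold threshold and lost its call when arrays were centred (-0.99). Cpn60beta3, a subunit of the chloroplast chaperonin, was higher by 1.81 ± 0.21 (adjusted p = 0.000272), and Cpn60beta2 was not called (0.41). In the endoplasmic reticulum 1 of 13 folding genes was called: DER2.1, a derlin of protein degradation there, was lower, at -2.10, or -1.49 without WS replicate 1 and -2.71 without replicate 2.

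Nuclear genes of photosynthesis were called only as lower. Of 40 nuclear photosynthesis genes 11 were lower in WS at 4 °C than in Col-0 at 22 °C and none was higher, against 7.37% of all probe sets called lower, with a median of -0.60 and 36 negative differences. LHCB4.2, a light-harvesting protein of photosystem II, read 9.96 and 9.34 in WS at 4 °C and 12.93 and 11.96 in Col-0 at 22 °C (-2.79 ± 0.35, adjusted p = 0.000429). CHLM, a methyltransferase of chlorophyll synthesis, read 9.21 and 9.10 in WS at 4 °C and 11.10 and 10.70 in Col-0 at 22 °C (-1.74 ± 0.20, adjusted p = 0.000288). NdhL, of the chloroplast NDH complex, differed by -1.60 ± 0.15 (adjusted p = 9.4e-05). RCA, the Rubisco activase, was not called (-0.31, adjusted p = 0.161). In WS minus Col-0 at 4 °C limma called 1 of the 40 lower, and the median was -0.07. At an unadjusted p under 0.05, 6 were lower there and 1 was higher. LHCB4.2 differed by -0.94 in that comparison, which was not called (adjusted p = 0.107), and by -1.86 in cold minus mock-treated Col-0. Of 69 genes encoded in the plastid itself 1 was called, ndhA (-1.41), which lost its call without WS replicate 2 (-1.17, adjusted p = 0.0778) or Col-0 22 °C replicate 2 (-1.13, adjusted p = 0.0695).

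Averages over leaf markers and over root markers were both lower in cold WS. The mean log2 signal of 5 of 5 leaf and stem markers was 9.46 to 9.75 in the WS arrays and 10.68 to 11.09 in the 22 °C arrays, and that of 6 of 11 root markers was 7.17 to 7.60 in the WS arrays and 8.40 to 8.44 in the 22 °C arrays. The leaf list holds LHCB4.2 and CHLM themselves, and the root list holds JAL33, which read 5.11 and 5.62 in WS and 9.75 and 9.90 at 22 °C and also differed between the accessions at 4 °C. The other root markers did not move together: EXPA18 read 5.97 and 5.96 in WS and 5.02 and 5.17 at 22 °C, EXPA7 read 5.45 and 5.25 in WS and 5.26 and 5.45 at 22 °C, and NAI2 and JAL22 were lower in both WS arrays than in either 22 °C array. In the cold Col-0 arrays the leaf markers averaged 9.44 to 9.88 and the root markers 7.26 to 7.98. None of the seed or pollen markers listed had a probe set of its own. The part of tissue makeup in these results was not tested. The root glucosidase PYK10 was at 11.43 and 12.09 in WS at 4 °C and at 11.66 and 12.21 in Col-0 at 22 °C, and these ranges overlap.

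Genes of wall loosening were called in both directions. Of 27 expansins and xyloglucan endotransglucosylase/hydrolases (XTH), proteins that loosen and remodel the wall, 5 were higher and 4 lower, with a median of 0.11. EXPA8 read 4.56 and 4.98 in WS at 4 °C and 9.88 and 9.42 in Col-0 at 22 °C (-4.88 ± 0.20, adjusted p = 3.14e-06), and was also near the dim end in Col-0 at 4 °C, at 4.44 to 4.83. EXPB3 was lower, at -2.77 ± 0.23 (adjusted p = 5.63e-05) and EXPA4 at -2.23 ± 0.19 (adjusted p = 5.82e-05). EXPA4 was also lower in WS than in Col-0 at 4 °C, at -1.20 (adjusted p = 0.00327), and 1 other gene of the list was called higher there. On the other side, XTH20 read 8.91 and 9.70 in WS at 4 °C and 4.57 and 5.72 in Col-0 at 22 °C (4.16 ± 0.47, adjusted p = 0.000261). XTH19 was higher by 2.46 and the expansin-like EXLA2 by 2.72.

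The few genes called in other wall families were lower in cold WS. Among 23 GH9 endoglucanases and cellulose synthase-like genes 3 were lower: GH9B13 at -2.97 ± 0.25 (adjusted p = 5.33e-05), CSLC04, which builds the xyloglucan backbone, at -2.85 ± 0.23 (adjusted p = 5e-05), and CSLA03 at -2.06. CSLC04 was also lower in WS than in Col-0 at 4 °C, at -1.56 (adjusted p = 0.00235). Among 22 TBL genes, a family that acetylates wall polysaccharides, 4 were lower, led by TBL36 with 5.56 and 6.54 in WS at 4 °C and 9.07 and 8.69 in Col-0 at 22 °C (-2.83 ± 0.31, adjusted p = 0.00021). The shares called, 13.0% and 18.2%, were near the 14.2% of all probe sets, of which 7.37% were called lower. The medians of both families, 0.04 and 0.06, were close to that of all probe sets.

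**Figure D2:**
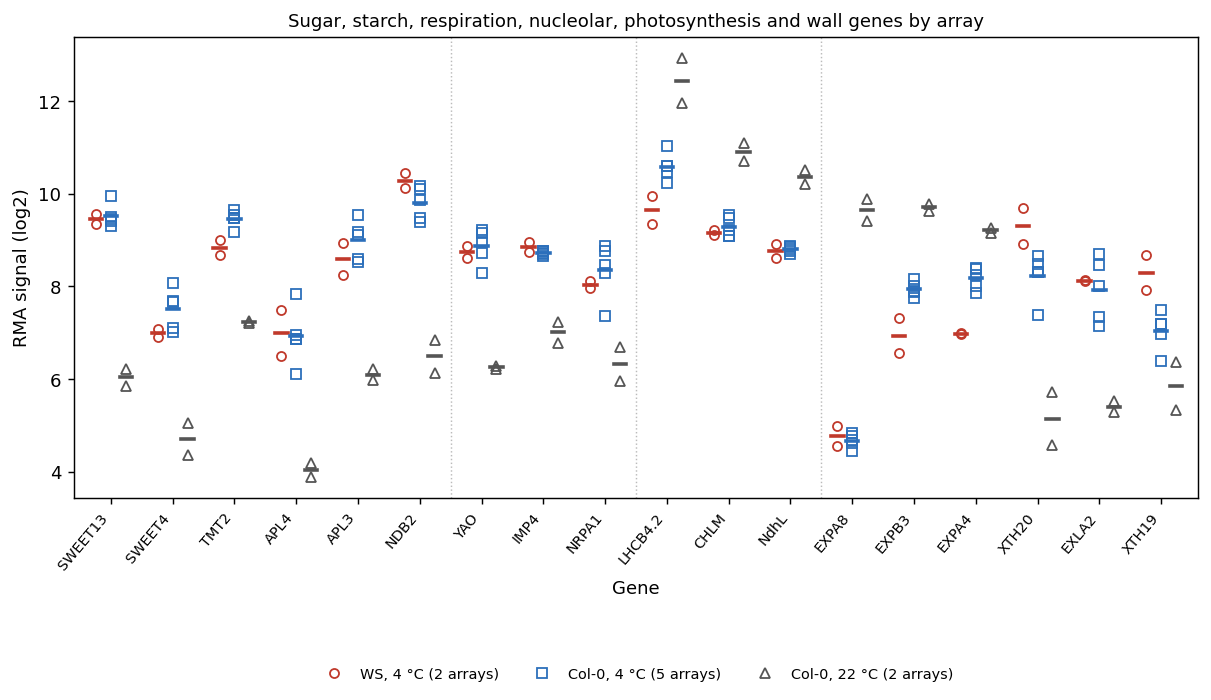
Log2 RMA signal of sugar, starch and respiration genes, nucleolar genes, photosynthesis genes and wall genes (separated by dotted lines), each symbol 1 array and each bar a group mean, with WS at 4 °C left of Col-0 at 4 °C and Col-0 at 22 °C. SWEET13, NDB2 and YAO lie higher in all cold arrays than at 22 °C, and LHCB4.2, CHLM and EXPA8 lie lower.

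Autophagy genes of the ATG8 family, which coats the autophagosome, also split. Of 10 autophagy genes 3 were lower in cold WS than in Col-0 at 22 °C and 1 was higher, with a median of -0.48. That is 40.0% of the list, against 14.2% of all probe sets. ATG8E read 5.37 and 6.06 in WS at 4 °C and 7.96 and 7.52 in Col-0 at 22 °C (-2.03 ± 0.29, adjusted p = 0.000871). ATG8F differed by -1.84 ± 0.24 (adjusted p = 0.000579). ATG8C sat at the fold threshold, and its difference was -0.98 with arrays centred. ATG8B was higher by 1.13, or 0.98 without Col-0 22 °C replicate 1. In WS minus Col-0 at 4 °C all 10 differences were positive, with a median of 0.43. Of the 10, 1 was called higher, where 0.857% of all probe sets were. The 10 differences come from the same 2 WS arrays and are not independent.

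Anthocyanin genes stood lower in cold WS than in cold Col-0. Of 9 measured anthocyanin and flavonol genes 3 were higher in WS at 4 °C than in Col-0 at 22 °C, with a median of 0.45. Without either WS array, or without Col-0 22 °C replicate 2, that count was 1. In cold minus mock-treated Col-0, with the same 22 °C arrays, 7 of the 9 were higher and the median was 1.78. Some of those calls were not firm either. Without Col-0 22 °C replicate 2, AT4G14090, UF3GT and DFR lost theirs, with differences of 1.41, 1.58 and 0.94. DFR also lost its call there with set 4 as a term in limma (1.41, adjusted p = 0.0603). In WS minus Col-0 at 4 °C all 9 differences were negative and the median was -0.59. Of the 9, 2 were called lower, where 1.28% of all probe sets were. These differences come from the same 2 WS arrays and are not independent. The array's probes were designed on the Col-0 sequence, and whether WS transcripts match them less well was not tested. UGT78D2, an anthocyanidin and flavonol glucosyltransferase, read 10.51 and 10.50 in WS at 4 °C and 9.12 and 8.89 in Col-0 at 22 °C (1.50 ± 0.17, adjusted p = 0.00025). UGT78D3, a flavonol arabinosyltransferase, was higher by 2.46 and CHIL, a chalcone isomerase-like protein, by 1.19. Neither call was firm. UGT78D3 lost its call when any of the 4 arrays was left out, with differences of 2.38 to 2.53. CHIL lost its call when a WS array or Col-0 22 °C replicate 2 was left out, with differences of 0.93 to 1.26.

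DFR, UF3GT, AT4G14090 and AT5MAT were not called between cold WS and Col-0 at 22 °C. DFR, dihydroflavonol reductase, read 7.92 and 8.04 in WS at 4 °C and 8.60 and 7.47 in Col-0 at 22 °C, with a difference of -0.06 (adjusted p = 0.954) and overlapping groups. The cold Col-0 arrays read 8.80 to 10.56 for DFR, all above both WS arrays, although the difference at 4 °C, -1.56, missed the threshold (adjusted p = 0.08) except when the set 4 arrays were left out (-1.47, adjusted p = 0.046). UF3GT, an anthocyanin xylosyltransferase, behaved likewise, with 6.72 and 7.17 in WS at 4 °C, 7.85 to 9.60 in Col-0 at 4 °C and 7.04 and 5.95 in Col-0 at 22 °C. Its difference at 4 °C was -1.67 (adjusted p = 0.069), and it was called without the set 4 arrays (adjusted p = 0.0441), without the dimmest probe sets (adjusted p = 0.0454) and with a trended robust variance (adjusted p = 0.0493). AT4G14090, listed with this branch, read 6.45 and 6.84 in WS at 4 °C, 8.13 to 9.81 in Col-0 at 4 °C and 7.42 and 7.02 in Col-0 at 22 °C, and AT5MAT, the anthocyanin malonyltransferase, 5.80 and 5.89 in WS at 4 °C, 6.68 to 7.92 in Col-0 at 4 °C and 5.21 and 4.39 in Col-0 at 22 °C. Against Col-0 at 22 °C AT5MAT differed by 1.05 (adjusted p = 0.0803), and was called higher without the set 4 arrays (adjusted p = 0.0322) or without set 4 replicate 1 (adjusted p = 0.0408). AT4G14090 and AT5MAT are the 2 genes called lower in WS than in Col-0 at 4 °C, at -2.19 (adjusted p = 0.0197) and -1.55 (adjusted p = 0.0309). Neither call held without either WS array: the adjusted p was 0.131 and 0.102 for AT4G14090, and 0.151 and 0.166 for AT5MAT, without WS replicates 1 and 2 in turn. UGT78D1, the flavonol rhamnosyltransferase, and BAN, which leads to tannins, were not called in any of the 3 comparisons.

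**Figure D3:**
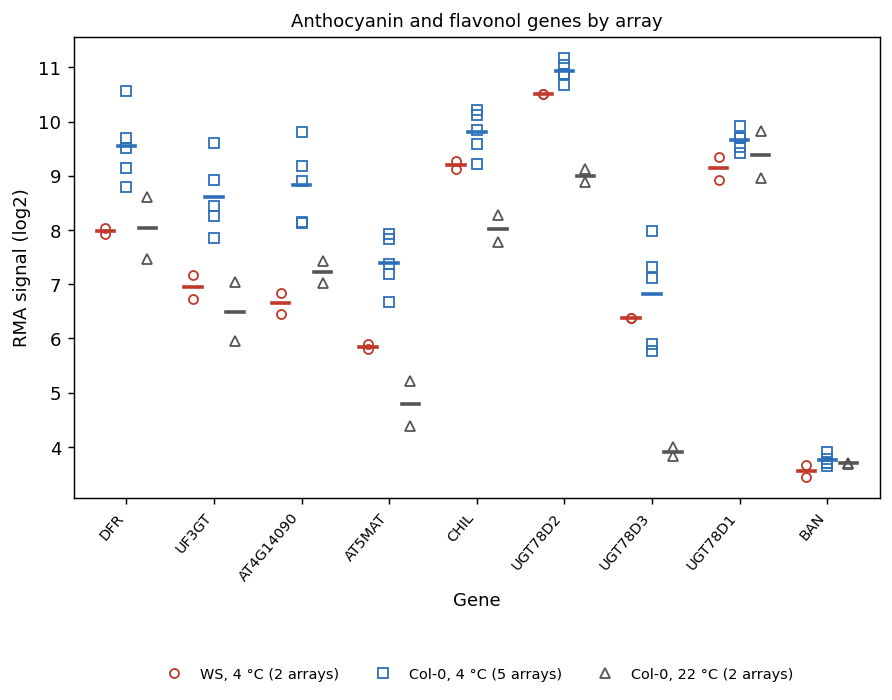
Log2 RMA signal of the 9 anthocyanin and flavonol genes, each symbol 1 array and each bar a group mean, with WS at 4 °C left of Col-0 at 4 °C and Col-0 at 22 °C. For DFR, UF3GT, AT4G14090 and AT5MAT both WS arrays lie below all 5 cold Col-0 arrays, and for DFR they lie between the 22 °C arrays.

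Tau glutathione transferases were called in both directions. GSTU25, a glutathione transferase of the tau class, had the highest difference of the genes called, with 10.68 and 11.34 in WS at 4 °C and 4.19 and 5.48 in Col-0 at 22 °C (6.18 ± 0.75, adjusted p = 0.00038), and 5.53 without Col-0 22 °C replicate 1 or 6.83 without replicate 2. Both WS arrays lay above the highest of the cold Col-0 arrays, 10.51, but WS minus Col-0 at 4 °C missed the threshold (1.82, adjusted p = 0.146), save without set 4 replicate 2 (2.15, adjusted p = 0.0489). Of 11 tau transferases 3 were higher and 1 lower, with a median of 0.37, and 1 was higher without WS replicate 2. In all, 36.4% of the list was called, against 14.2% of all probe sets. GSTU18 was the gene called lower, with 5.93 and 5.63 in WS at 4 °C and 9.25 and 8.70 in Col-0 at 22 °C (-3.20 ± 0.18, adjusted p = 1.17e-05). GSTU20, which was not called, read 11.15 and 11.18 in WS at 4 °C and 11.21 and 10.76 in Col-0 at 22 °C. GSTU22 was higher by 3.40, a call lost without WS replicate 2 (adjusted p = 0.0591) or Col-0 22 °C replicate 1 (adjusted p = 0.0644).

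Among 47 UGT glycosyltransferases 9 were higher and 6 lower, with a median of 0.19, and 5 were higher without Col-0 22 °C replicate 1. UGT73C1 differed by 3.25 ± 0.62 (adjusted p = 0.0044). UGT73B5 read 6.34 and 7.51 in WS at 4 °C, 4.84 to 5.59 in Col-0 at 4 °C and 4.63 and 5.15 in Col-0 at 22 °C. It was higher in WS than in Col-0 at 4 °C (1.68, adjusted p = 0.019), but not without WS replicate 2 (1.10, adjusted p = 0.152). Of 24 cytochromes P450, 5 were lower and none higher. CYP71B5 was lower, at -1.70 and CYP71B24 at -2.05, the second of these -2.91 without Col-0 22 °C replicate 1 and -1.18 without replicate 2. Among 22 beta-glucosidases 2 were higher and 3 lower, with BGLU25 at 10.32 and 10.12 in WS at 4 °C and 7.84 and 7.56 in Col-0 at 22 °C (2.52 ± 0.15, adjusted p = 1.36e-05) and BGLU40 lower, at -2.16. Of 24 redox enzymes 1 was higher, the glutathione reductase GR1 (1.62 ± 0.18, adjusted p = 0.000277), and 3 were lower (5 without Col-0 22 °C replicate 2), among them the sulfiredoxin SRX (-1.43) and the chloroplast thioredoxin TRXF2 (-1.42). The shares called were 31.9% of the UGT list, 20.8% of the cytochromes P450 and 22.7% of the beta-glucosidases, against 14.2% of all probe sets. The share of the redox enzymes, 16.7%, was near that of all probe sets. BETA-VPE, a vacuolar processing protease, read 9.81 and 8.78 in WS at 4 °C and 4.78 and 5.41 in Col-0 at 22 °C (4.20 ± 0.31, adjusted p = 2.99e-05), while GAMMA-VPE was not called (-0.56).

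**Figure D4:**
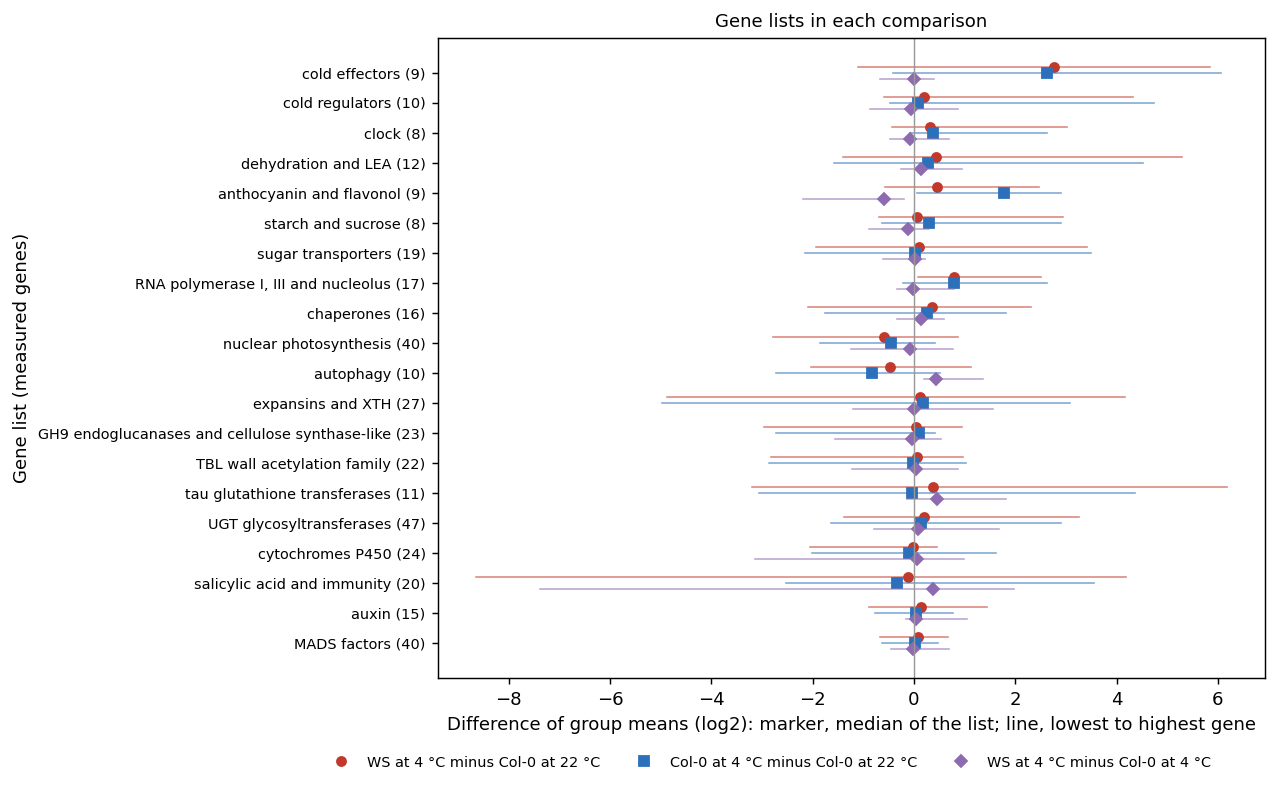
Differences of group means (log2) for 20 gene lists, with the median as a symbol and the lowest to the highest gene as a line, for cold WS and cold Col-0, each minus the same mock-treated Col-0 arrays, and for WS minus Col-0 at 4 °C. The cold effectors have a median of 2.76 in the first and 0.00 in the last, and the anthocyanin list has the lowest median drawn for the last, -0.59.

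Several groups held no called gene. None of 15 auxin genes, 40 MADS factors, 10 jasmonate and wound genes, 6 glucosinolate genes or 6 WRKY factors was called between WS at 4 °C and Col-0 at 22 °C, where 14.2% of all probe sets were. Their medians were 0.13, 0.07, -0.06, -0.68 and 0.39 in that order, beside 0.041 over all probe sets. At an unadjusted p under 0.05 limma gave 2, 6, 1, 4 and 3 genes of these lists in either direction, and leaving out single arrays or centring gave at most 1 call each way in the auxin, glucosinolate and WRKY lists. None of 5 reference genes was called by limma, 1 had an unadjusted p under 0.05, and GAPC2 read 12.41 and 12.81 in WS at 4 °C and 12.74 and 12.89 in Col-0 at 22 °C. THI2.2, a thionin on the jasmonate list, was not called there (-0.10), but was lower in WS than in Col-0 at 4 °C: it read 7.56 and 7.07 in WS and 8.47 to 8.97 in the cold Col-0 arrays (-1.47, adjusted p = 0.00327), a call lost without WS replicate 2 (-1.23, adjusted p = 0.0501). Of 14 bZIP factors 1 was higher, bZIP44 (2.54 ± 0.30, adjusted p = 0.000335), and 1 lower, BZIP61 (-2.67 ± 0.29, adjusted p = 0.000197). That is 14.3% of the list, close to the 14.2% of all probe sets. RR16, a cytokinin response regulator, was lower, at -2.10, with -2.69 without Col-0 22 °C replicate 1 and -1.51 without replicate 2. GID1B, a gibberellin receptor, was higher by 1.18, and by 0.97 without Col-0 22 °C replicate 1.

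Loci that the annotation leaves without a symbol held many of the highest differences. AT1G16850 read 12.00 and 11.25 in WS at 4 °C and 4.97 and 6.23 in Col-0 at 22 °C (6.03 ± 0.36, adjusted p = 1.31e-05), and 5.40 or 6.66 without Col-0 22 °C replicate 1 or 2. AT1G51090 read 11.03 and 10.46 in WS at 4 °C and 5.34 and 5.69 in Col-0 at 22 °C (5.23 ± 0.28, adjusted p = 8.64e-06). AT4G01870 read 10.64 and 12.10 in WS at 4 °C and 5.89 and 6.44 in Col-0 at 22 °C, and its difference of 5.20 was 5.93 without WS replicate 1 and 4.48 without replicate 2. PUB19, a U-box ubiquitin ligase, read 9.31 and 8.73 in WS at 4 °C and 4.36 and 4.89 in Col-0 at 22 °C (4.39 ± 0.37, adjusted p = 5.96e-05). For none of these 4 was a difference between WS and Col-0 at 4 °C called, although PUB19 was without Col-0 4 °C replicate 3 (1.14, adjusted p = 0.044). AT4G27450 was among the lowest, at 4.06 and 4.43 in WS at 4 °C and 8.60 and 9.76 in Col-0 at 22 °C (-4.94 ± 0.39), and AT1G51400 read 8.28 and 7.66 in WS at 4 °C and 12.35 and 12.03 in Col-0 at 22 °C (-4.22 ± 0.28). Neither was called between WS and Col-0 at 4 °C, with differences of 0.05 and -0.34.

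The lowest difference of the genes called belonged to one that also differed between the accessions at 4 °C. ECS1, a wall-associated protein linked to bacterial resistance, read 4.15 and 4.68 in WS at 4 °C, 11.60 to 11.93 in Col-0 at 4 °C and 12.88 and 13.26 in Col-0 at 22 °C. Its difference was -8.65 ± 0.20 against Col-0 at 22 °C (adjusted p = 6.02e-08) and -7.39 against Col-0 at 4 °C (adjusted p = 5.66e-08), while cold minus mock-treated Col-0 was -1.26. Because the probes follow the Col-0 sequence, a poorer match of the WS transcript and a lower transcript level cannot be told apart for ECS1. The same holds for any other gene that read lower in WS than in Col-0, whether dim or bright. In the same class, with all 3 differences called and negative, were AT3G47250 (3.34 and 3.11 in WS at 4 °C, 8.07 to 8.38 in Col-0 at 4 °C, 9.46 and 9.45 in Col-0 at 22 °C), AT5G03350, the jacalin lectin JAL33 and AT4G19530. JAL33 read 5.11 and 5.62 in WS at 4 °C, 7.63 to 8.61 in Col-0 at 4 °C and 9.75 and 9.90 in Col-0 at 22 °C (-4.46 ± 0.34 against 22 °C, adjusted p = 3.73e-05). AT5G03350 lost its cold call within Col-0 without Col-0 22 °C replicate 2 (-1.32, adjusted p = 0.0592). AT1G22890 is a weaker case: its WS minus Col-0 difference at 4 °C of -1.75 had an adjusted p of 0.0434, and of 0.241 and 0.133 without WS replicates 1 and 2. CSA1, a TIR-NBS-LRR protein of the shade response, read 4.06 and 3.68 in WS at 4 °C, 5.48 to 5.94 in Col-0 at 4 °C and 7.27 and 6.91 in Col-0 at 22 °C (-3.22 ± 0.19, adjusted p = 1.26e-05).

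Other genes differed between the accessions, and in the fit over all 9 arrays had no call for cold within Col-0. AT1G66100 read 3.41 and 3.71 in WS at 4 °C, 8.60 to 9.93 in Col-0 at 4 °C and 10.93 and 9.55 in Col-0 at 22 °C. AT1G76960 read 3.46 and 3.21 in WS at 4 °C, 6.89 to 7.96 in Col-0 at 4 °C and 7.81 and 9.74 in Col-0 at 22 °C. Against Col-0 at 22 °C they differed by -6.68 and -5.44, and the size moved with the 22 °C array left out, to -5.99 and -6.40 without replicate 1 and to -7.37 and -4.47 without replicate 2. The missing cold call within Col-0 was not firm for either: AT1G66100 was called lower without Col-0 22 °C replicate 2 (-1.57, adjusted p = 0.0275), and AT1G76960 without replicate 1 (-2.32, adjusted p = 0.00427) and under 4 other settings. The histone H2B gene HTB11 read 3.94 and 4.11 in WS at 4 °C, 8.52 to 8.92 in Col-0 at 4 °C and 8.76 and 9.06 in Col-0 at 22 °C (-4.88 ± 0.16 against 22 °C, adjusted p = 7.15e-07). Another H2B gene, HTB1, stood higher in WS, at 10.36 and 10.42, against 9.11 to 9.32 in Col-0 at 4 °C and 9.19 and 8.64 in Col-0 at 22 °C (1.48 ± 0.17 against 22 °C, and 1.20 against 4 °C, adjusted p = 0.002). H2B genes are close copies, and cross-hybridisation between them was not tested. AT1G73490 was lower in WS as well, at 4.83 and 4.17, with 8.81 to 9.08 in Col-0 at 4 °C and 8.43 and 8.48 in Col-0 at 22 °C.

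Other genes stood high in WS. AT2G15560 read 8.54 and 9.85 in WS at 4 °C, 4.35 to 4.69 in Col-0 at 4 °C and 4.54 and 4.31 in Col-0 at 22 °C. It was higher by 4.77 ± 0.34 against Col-0 at 22 °C (adjusted p = 2.5e-05) and by 4.66 against Col-0 at 4 °C (adjusted p = 2.69e-05), and by 5.42 and 5.32 without WS replicate 1 or 4.11 and 4.01 without replicate 2. AT5G38020 read 9.42 and 9.76 in WS at 4 °C, 5.05 to 5.99 in Col-0 at 4 °C and 5.99 and 7.03 in Col-0 at 22 °C (3.08 ± 0.36 against 22 °C, adjusted p = 0.000335), and was called lower for cold within Col-0 without the set 4 arrays (-1.07, adjusted p = 0.0458) or Col-0 22 °C replicate 1 (-1.41, adjusted p = 0.0171). PDF2.5, a defensin-like peptide, read 7.99 and 8.77 in WS at 4 °C, 6.08 to 7.00 in Col-0 at 4 °C and 6.07 and 6.70 in Col-0 at 22 °C, and its difference at 4 °C, 1.76, was called except without WS replicate 2 (1.37, adjusted p = 0.121). Its relative PDF2.1, by contrast, was high in all cold arrays: 9.10 and 9.63 in WS at 4 °C, 8.29 to 9.11 in Col-0 at 4 °C and 4.69 and 5.67 in Col-0 at 22 °C (4.18 ± 0.34 against 22 °C, adjusted p = 5e-05). Over the whole list of salicylic acid and immunity genes, 2 of 20 were higher and 3 lower in WS at 4 °C than in Col-0 at 22 °C, with a median of -0.11.

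For another class of genes, cold minus mock-treated Col-0 and WS minus Col-0 at 4 °C were both called, with opposite signs. AT2G40010 read 3.29 and 3.66 in WS at 4 °C, 7.53 to 8.05 in Col-0 at 4 °C and 5.55 and 5.71 in Col-0 at 22 °C, so WS was lower, at -2.15 ± 0.20 and cold Col-0 higher by 2.17 than Col-0 at 22 °C. AT1G11280 differed by -2.81 in WS and by 1.02 in Col-0 (0.93 without Col-0 4 °C replicate 3) against the same 22 °C arrays, and CYP71B26 by -1.52 and 1.61. AT1G11280 read 4.08 and 4.38 in WS at 4 °C and 7.02 and 7.05 in Col-0 at 22 °C. Like AT2G40010 it was near the dim end in WS, where a poorer probe match and a lower level cannot be told apart. CYP71B26, a cytochrome P450, read 6.24 and 5.53 in WS at 4 °C, 8.83 to 9.44 in Col-0 at 4 °C and 7.38 and 7.44 in Col-0 at 22 °C, and WS minus Col-0 at 4 °C was -3.13 (adjusted p = 5.66e-05). AT4G23680 ran the other way, with 8.45 and 8.24 in WS at 4 °C, 4.77 to 5.90 in Col-0 at 4 °C and 6.88 and 6.16 in Col-0 at 22 °C. It was higher by 1.83 in WS against Col-0 at 22 °C, a call lost without Col-0 22 °C replicate 2 (1.47, adjusted p = 0.0586), and by 3.16 against Col-0 at 4 °C (adjusted p = 0.000966). AT4G12490 was high in the cold Col-0 arrays, with 6.50 and 7.74 in WS at 4 °C, 9.39 to 10.39 in Col-0 at 4 °C and 7.52 and 6.42 in Col-0 at 22 °C. Its WS minus Col-0 difference at 4 °C was -2.72 (adjusted p = 0.00643), and -2.10 without WS replicate 1 (adjusted p = 0.0603). Cold WS minus mock-treated Col-0 was 0.15 for this gene (adjusted p = 0.866), and 0.77 or -0.47 without WS replicate 1 or 2. These genes were picked for the opposite signs of those 2 comparisons, so their signs are a description.

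**Figure D5:**
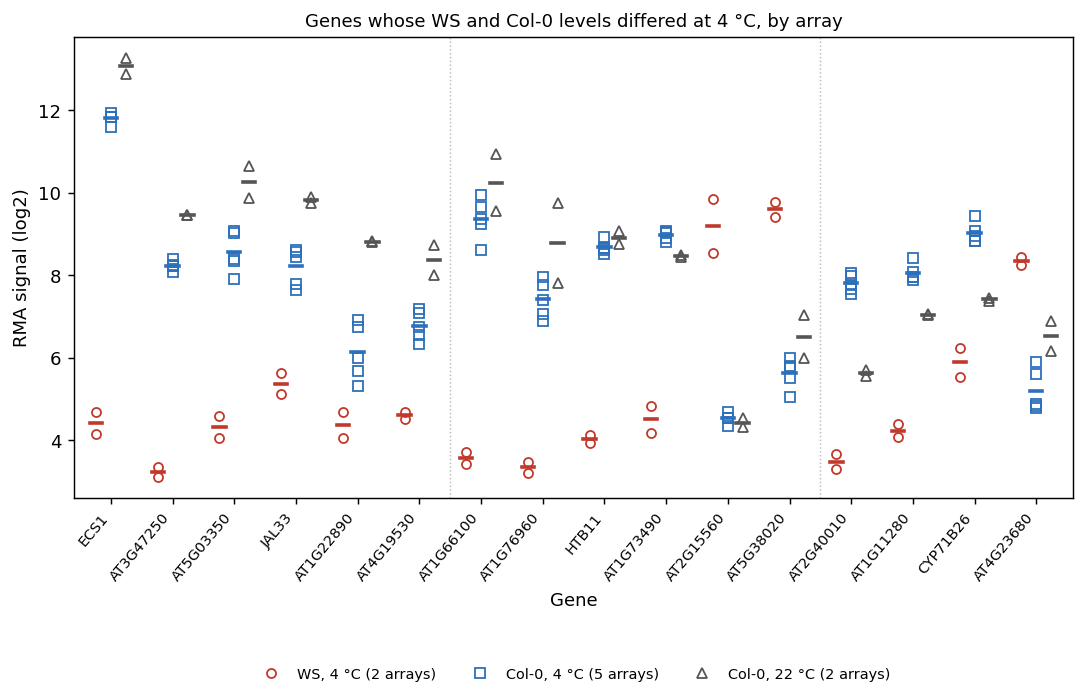
Log2 RMA signal of genes that differed between WS and Col-0 at 4 °C, each symbol 1 array and each bar a group mean, with WS at 4 °C left of Col-0 at 4 °C and Col-0 at 22 °C. On the left all 3 comparisons were called lower, in the middle cold minus mock-treated Col-0 was not called, and on the right cold Col-0 and cold WS lay on opposite sides of the 22 °C arrays. ECS1 is at 4.15 and 4.68 in WS and at 11.60 or more in every Col-0 array, and AT2G15560 is at 8.54 and 9.85 in WS and at 4.69 or less in every Col-0 array.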

How the data were processed

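Biotin-labelled RNA of whole seedlings was read on 9 Affymetrix ATH1 arrays (2 of cold WS, 5 of cold Col-0, 2 of mock-treated Col-0). The authors deposited RMA values on the log2 scale, made with affy, per the submitters' processing notes; versions are not given in the sources used here. RMA corrects background, normalizes by quantiles and summarises the probes of a set, which compresses large differences of dim genes.

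Groups came from the labels. Of 22810 probe sets, 64 controls were left out. The model for the other 22746, in limma 3.58.1 under R 4.3.3 with lmFit and eBayes, had 3 group means over 9 arrays, with 6 residual degrees of freedom and Benjamini-Hochberg adjustment over all probe sets. A call needed a log2 difference of 1 or more in size and an adjusted p under 0.05. The script was tested on simulated data. No normalization, filter or detection call was added.

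Names came from the array annotation and the RefSeq gene table of TAIR10.1. A single gene was given for 13513 probe sets, several for 503 and none for 8730. The 13513 covered 13355 genes, and for 147 genes with several probe sets the one with the highest mean was used. Genes named are the 15 highest and 15 lowest called without overlap, up to 3 called members each way and the brightest not called of each list, all cold effector, regulator, clock and anthocyanin genes, and 6 of each of 3 classes by accession. Members and lists were chosen with earlier results of these data known, and some lists were edited after the annotation was read: of 55, 48 had a measured gene. Replicate numbers did not pair the arrays. Alternatives tried were other array sets, set 4 as a term, a replicate block, a filter on the dimmest 25% (log2 3.9), centring, quantile normalization, a trended robust variance and leaving out each array.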

Additional observations from a re-analysis of the deposited data

Results flagged for a closer look

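AT1G51400, called lower in both cold groups, had 1 array apart among the 5 of Col-0 at 4 °C. Col-0 4 °C replicate 2 read 8.84 on the log2 scale, and the other 4 arrays lay between 8.04 and 8.26, so its gap to the next was 0.732 of the group's range, above the critical value of 0.71 for 5 arrays. The groups of 2 arrays were not tested in this way. It was the only gene of 39 tested, and chance alone puts about 1 group in 20 past that value. The array did not change the gene's calls: both WS arrays, at 8.28 and 7.66, lay far below the 22 °C arrays, at 12.35 and 12.03.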

How the results depend on the processing

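The counts of probe sets called in cold WS against Col-0 at 22 °C moved little. With 1 array left out at a time they ran from 1233 to 1645 for higher and from 1520 to 1759 for lower, and 942 of the 1551 higher (60.7%) and 1077 of the 1676 lower (64.3%) were called in every such fit. In WS minus Col-0 at 4 °C they ran from 111 to 231 for higher and from 174 to 319 for lower, the lowest without WS replicate 2, and 60 of 195 (30.8%) and 130 of 291 (44.7%) were called in every fit. The replicate block gave 1530 and 1658 for the comparison with Col-0 at 22 °C, and 168 and 225 for WS minus Col-0 at 4 °C. The labels do not say that equal numbers share a source, and the deviations of same-numbered WS and 22 °C arrays correlated at 0.089, those of WS and cold Col-0 arrays at -0.187 (no set name) and 0.236 (set 4), and the other pairs of groups between -0.318 and 0.112. Leaving an accession group with 1 array assumes that it varies like the others. Of 130 genes named and called against Col-0 at 22 °C, 103 kept their call under every alternative and 27 lost it under at least 1; of 62 not called, 5 gained a call. No call of a named gene turned to the other direction, but ATLP-1 and AT4G12490, which were not called against Col-0 at 22 °C, changed sign when single arrays were left out (0.48 and -0.88, 0.77 and -0.47). Dim signals, near the filter at log2 3.9, limit the size of differences for genes such as ECS1 and EXPA8.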

Other observations

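Smaller families outside the programmes described also held single called genes in cold WS against Col-0 at 22 °C. Tetraspanins, membrane scaffold proteins, had 2 of 15 higher and 1 lower: TET2 and TET3 were higher by 1.62 and 1.38, and TET10 lower, at -1.64. Calcium sensors had 2 of 7 lower, CML30 at -1.51 and CML42 at -1.47. Serine carboxypeptidase-like genes had 5 of 30 lower (2 without WS replicate 1 or Col-0 22 °C replicate 1) and 1 higher, and the higher one, scpl28, sat at the fold threshold (adjusted p = 0.0359) and missed it under 7 alternatives. Ubiquitin proteases and conjugating enzymes had 2 of 24 higher, UBP23 and UBP22, by 1.15 and 1.07, and neither call held without either WS array. The tubulin gene TUB9 was higher by 1.08 and its relative TUA6 was not called (-0.51). All these shares are to be read against the 14.2% called among all probe sets.

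Called genes were spread over the nuclear chromosomes, from 11.1% of 2169 measured genes on chromosome 2 to 14.1% of 3411 on chromosome 1. On the plastid chromosome 1.45% of 69 genes were called. The mitochondrial gene cox1 was called higher (1.64, adjusted p = 0.0457), with 8.30 and 8.36 in WS at 4 °C and 5.70 and 7.67 in Col-0 at 22 °C, and the call was lost without any 1 of several arrays. Without Col-0 22 °C replicate 1 the difference was 0.65 (adjusted p = 0.232).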
